A study of Homo sapiens with 6 samples.

Results

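The E2F and RB family comprises the transcription factors that set the timing of entry into S phase and the pocket proteins that hold them in check. The 10 genes described here are E2F1 to E2F8, RB1 and RBL1, chosen by symbol in the deposited gene table of 57773 genes. The 10 symbols matched 11 rows, because RBL1 occurred under 2 Ensembl identifiers. All 10 genes passed the filter on low counts, as did 16290 genes in all. RNA was sequenced from SW872 cells, an established human liposarcoma line that was cultured in RPMI-1640 with 10% FBS. A group of 3 samples received 18 μM Apatinib, an inhibitor of the VEGFR2 tyrosine kinase, for 24 h, and a group of 3 control samples received no treatment according to the labels. The labels name no engineered allele in either group and no vehicle for the control group. The comparison asks how this drug altered the RNA levels of the cells, here those of the E2F and RB genes.

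E2F proteins bind DNA together with a DP partner at sites found in many promoters of replication and cell cycle genes. E2F1, E2F2 and E2F3 are known as activators, E2F4 and E2F5 as repressors that act with pocket proteins, E2F6 as a repressor within a Polycomb complex, and E2F7 and E2F8 as atypical repressors that need no DP partner. Unphosphorylated RB1 binds the activators and silences them, RBL1 (p107) and RBL2 (p130) act mainly with E2F4 and E2F5, and cyclin-dependent kinases release the E2Fs by phosphorylating the pocket proteins. Several members are E2F targets themselves, so the family's own RNA levels follow the cell cycle.

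The promoters of the members show which of them carry the classical E2F octamers. RefSeq windows on GRCh38.p14, from 250 bases before to 50 bases after the start of the transcript, were searched on both strands for TTTCCCGC, TTTCGCGC, TTTGCCGC and TTTGGCGC. At least 1 of these 4 octamers occurred in 3.32% of all 35116 windows. Counted per gene, they occurred in 679 of 10294 genes that passed the filter and had a window. Windows were listed for 8 of the 10 members, and that of RB1 lay 172699 bases inside its gene and was not used. The 100 bases before the start are printed 5′ to 3′ on the gene's own strand, with the octamers in capitals, for the 4 members with a match and for E2F4 and E2F7 as members without one.

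E2F1, chr20:33686386-33686485, minus strand: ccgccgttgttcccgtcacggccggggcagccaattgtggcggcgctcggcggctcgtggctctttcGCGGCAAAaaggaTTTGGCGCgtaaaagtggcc
E2F2, chr1:23531234-23531333, minus strand: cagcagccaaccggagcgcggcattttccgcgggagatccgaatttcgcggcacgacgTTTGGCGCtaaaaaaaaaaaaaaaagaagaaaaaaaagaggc
E2F3, chr6:20401779-20401878, plus strand: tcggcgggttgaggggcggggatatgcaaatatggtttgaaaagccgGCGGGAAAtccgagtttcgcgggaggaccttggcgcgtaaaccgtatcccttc
RBL1, chr20:37095998-37096097, minus strand: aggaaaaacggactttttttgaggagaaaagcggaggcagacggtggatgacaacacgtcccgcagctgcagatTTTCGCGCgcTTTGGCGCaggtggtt
E2F4, chr16:67192055-67192154, plus strand: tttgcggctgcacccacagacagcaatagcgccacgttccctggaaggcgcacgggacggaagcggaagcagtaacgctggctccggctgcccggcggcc
E2F7, chr12:77065570-77065669, minus strand: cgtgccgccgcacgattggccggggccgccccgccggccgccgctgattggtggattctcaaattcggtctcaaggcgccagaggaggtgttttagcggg

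E2F1 held TTTGCCGC on the opposite strand (read as GCGGCAAA) from position -33 and TTTGGCGC from position -20, counted from the start of the transcript. RBL1 held TTTCGCGC from position -26 and TTTGGCGC from position -16. E2F2 held TTTGGCGC from position -42, and the upstream of 2 windows of E2F3 held TTTCCCGC on the opposite strand from position -53. The second window of E2F3 and those of E2F4, E2F6 and E2F7 held none of these letters. These windows come from a later build than the hg19 alignment named in the submitters' processing notes, and no count was placed by their coordinates.

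Total counts per sample ranged from 17043314 to 22067558. The 7 mesenchymal markers were all detected, from 881 to 1263 FPKM for vimentin (VIM) and 273 to 440 FPKM for fibronectin (FN1) down to 0.473 to 1.61 FPKM for COL3A1, with COL1A1, COL1A2 and THY1 also under 8 FPKM. Of the epithelial markers, KRT18 reached 133 to 184 FPKM and KRT8 21.0 to 41.4 FPKM, and EPCAM, CDH1 and KRT19 stayed under 1 FPKM. The mature adipocyte genes FABP4 and ADIPOQ and the pan-leukocyte gene PTPRC had 0 counts in all 6 samples. Other adipocyte and leukocyte genes were detected, with 859 to 1138 counts of PPARG, 187 to 416 of LPL and 40 to 107 of CD14. The summed FPKM of the 5 leukocyte markers was 7.78 to 13.3 with Apatinib against 3.77 to 5.07 in the control samples. Over all 6 samples, CD68 ranged from 1.79 to 11.8 FPKM with at most 1 count, and its part in the results was not tested. KDR, which encodes VEGFR2, had 4 to 11 counts per sample. Control replicates 1 and 2 were far more alike than any other pair of the same group, with a chi-square per gene of 2.27 against 18.2 to 44.5, where counting noise alone gives about 1. They were kept as 2 samples, and each call that rests on them is also given without each of them. Nothing in the labels says whether the replicates came from separate cultures, although the study describes 3 biological replicates, and p-values measure the spread between these samples. In bulk RNA, fewer cells in S phase and less RNA of a gene per cell cannot be told apart.

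A gene was called where edgeR's quasi-likelihood test gave a Benjamini-Hochberg adjusted p-value (FDR) under 0.05 over all 16290 genes and a log2 fold change (Apatinib against control) above 0.5 in size. By this rule 4 of the 10 members were called, E2F2, E2F8, RB1 and RBL1, and all 4 were lower with Apatinib. Of all genes tested, 11.5% were called, 5.48% as lower and 5.97% as higher. In 6 of the 10 members every Apatinib sample lay below every control sample in CPM (counts scaled to library size by the TMM method), as it did in 15.7% of all genes tested. No member lay higher in every Apatinib sample, and 33.2% of all genes did not overlap between the groups in either direction. The same 4 members were called with DESeq2, by which 7.28% of all genes were called lower.

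**Figure D1:**
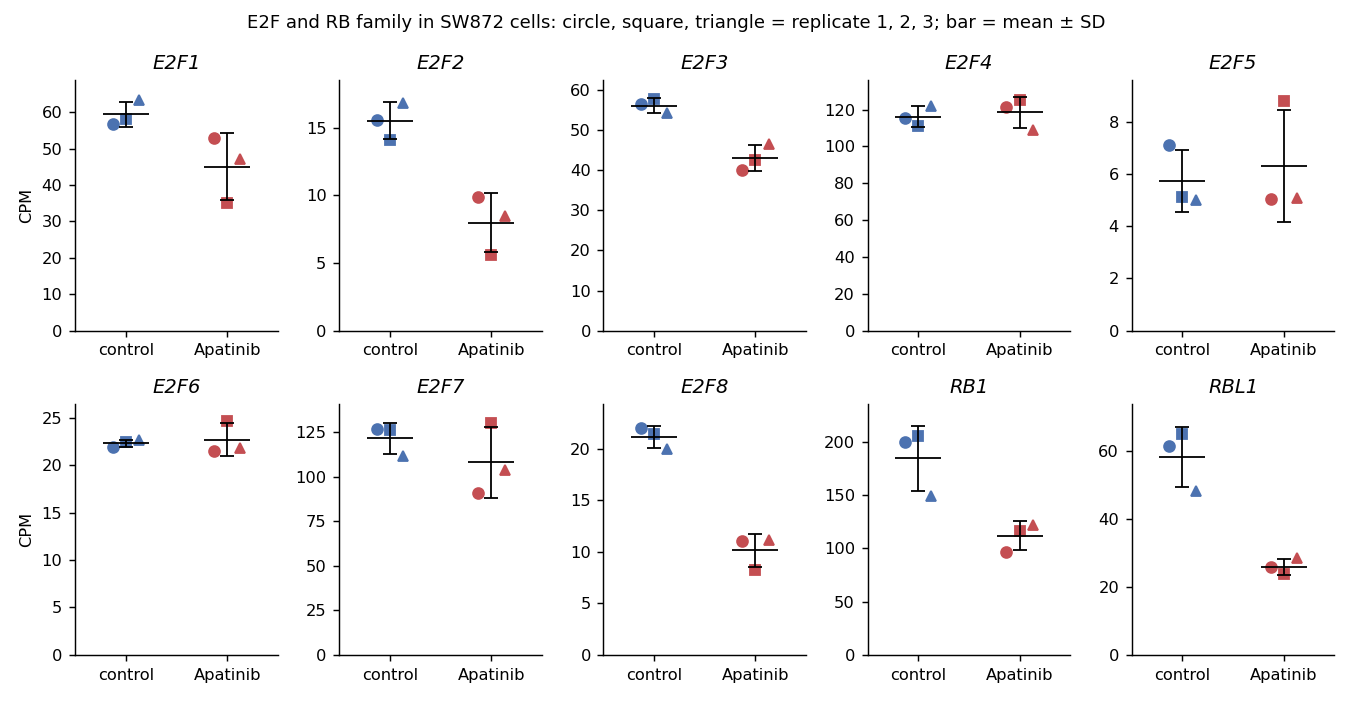
CPM of each member in the 3 control samples (blue) and the 3 Apatinib samples (red), each panel on its own axis from 0, with circles, squares and triangles for replicates 1, 2 and 3 and bars for the mean ± SD. The groups are apart for E2F1, E2F2, E2F3, E2F8, RB1 and RBL1, and they overlap for E2F4, E2F5, E2F6 and E2F7.

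Among the activators, only E2F2 passed the call rule, and E2F1 and E2F3 were lower by amounts that did not pass it. E2F2 (ENSG00000007968), an activator that drives S phase entry, was measured at 9.89, 5.59 and 8.47 CPM in Apatinib replicates 1, 2 and 3 and at 15.6, 14.1 and 16.9 CPM in control replicates 1, 2 and 3. All 3 Apatinib samples lay below the lowest control sample, and Apatinib replicate 2 was lowest. The mean fell by 48.6%, from 15.5 ± 1.36 to 7.98 ± 2.19 CPM (SD, n = 3), which edgeR fitted as a log2 fold change of -0.96 ± 0.204 (SE) at an FDR of 0.0152. E2F2 was a gene of low counts, 99 in its lowest sample, where counting alone gives an error of 10.1%. Leaving out control replicate 1 gave an FDR of 0.0669 at a log2 fold change of -0.96. Leaving out control replicate 2 gave an FDR of 0.0520 at -1.03, so the call rested on having both.

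E2F1 (ENSG00000101412), the founding member and an activator that can also induce apoptosis genes, was measured at 53.0, 35.1 and 47.1 CPM with Apatinib and at 56.9, 58.0 and 63.4 CPM in the control samples. The groups did not overlap, but Apatinib replicate 1 lay close to control replicate 1 and Apatinib replicate 2 lay well below the rest. The log2 fold change was -0.40 (95% interval -0.74 to -0.06, unadjusted), and the edgeR FDR of 0.105 did not pass the threshold. Without Apatinib replicate 2 the log2 fold change was -0.24.

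E2F3 (ENSG00000112242), an activator with 2 transcript starts that gene counts cannot separate, was measured at 40.1, 42.6 and 46.7 CPM with Apatinib and at 56.5, 57.8 and 54.2 CPM in the control samples. Its samples were tightly grouped, and the groups were apart. The log2 fold change was -0.38 (95% interval -0.64 to -0.12) with an edgeR FDR of 0.0564. DESeq2 gave an FDR of 0.0457, with a fold change that stayed under the size limit of the call rule.

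The repressors that act with pocket proteins or Polycomb, E2F4, E2F5 and E2F6, were not called and overlapped between the groups. E2F4 (ENSG00000205250), the main E2F of resting cells, was measured at 121, 125 and 109 CPM with Apatinib and at 115, 111 and 122 CPM in the control samples. The samples of both groups were interleaved. The log2 fold change was 0.03 with a 95% interval of -0.22 to 0.28 (edgeR FDR 0.896), which leaves out changes of the size seen for E2F2.

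E2F6 (ENSG00000169016), which lacks a transactivation domain, was measured at 21.5, 24.7 and 21.8 CPM with Apatinib and at 21.9, 22.4 and 22.6 CPM in the control samples. The log2 fold change was 0.02, with a 95% interval of -0.26 to 0.31 (edgeR FDR 0.926). The FPKM of E2F6 as the authors deposited it, which scales fragments to transcript length and to library size, did separate the groups, at 7.38, 7.25 and 6.89 with Apatinib against 6.59, 6.53 and 5.99 in the control samples. This difference did not pass limma on log2(FPKM + 1), with an FDR of 0.402.

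E2F5 (ENSG00000133740) was the member with the fewest counts, 87 to 156 per sample, and its exons overlap other genes on the opposite strand in GENCODE 29, with up to 556 shared bases. It was measured at 5.06, 8.81 and 5.09 CPM with Apatinib and at 7.10, 5.11 and 4.99 CPM in the control samples. The highest sample was Apatinib replicate 2, and the other samples of both groups were interleaved. The log2 fold change of 0.14 (edgeR FDR 0.739) had a 95% interval of -0.41 to 0.70, which includes sizeable changes in either direction. Without Apatinib replicate 2 the log2 fold change was -0.16.

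Of the atypical pair, E2F8 was called lower and E2F7 was not called. E2F8 (ENSG00000129173), a repressor of E2F targets that peaks in S and G2 phases, was measured at 11.1, 8.24 and 11.1 CPM with Apatinib and at 22.0, 21.4 and 19.9 CPM in the control samples. The groups were far apart relative to their spread. The mean fell by 52.0%, from 21.1 ± 1.06 to 10.1 ± 1.64 CPM (SD, n = 3), which edgeR fitted as a log2 fold change of -1.06 ± 0.160 (SE) at an FDR of 0.00487. The call held in each of 14 alternative fits, with FDR 0.0321 without control replicate 1 and 0.0305 without control replicate 2.

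E2F7 (ENSG00000165891), which forms dimers with itself or with E2F8, was measured at 90.6, 129.9 and 103.8 CPM with Apatinib and at 126.8, 126.1 and 111.5 CPM in the control samples. Apatinib replicate 2 was the highest of all 6 samples and Apatinib replicate 1 the lowest, so the groups overlapped. The log2 fold change was -0.17 (95% interval -0.48 to 0.15, edgeR FDR 0.464). Without Apatinib replicate 2 it was -0.31, and without Apatinib replicate 1 it was -0.05.

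Both of the pocket proteins chosen here fell. RBL1 (ENSG00000080839), which encodes p107 and is itself an E2F target, was measured at 25.8, 23.7 and 28.3 CPM with Apatinib and at 61.4, 65.0 and 48.1 CPM in the control samples. All Apatinib samples lay far below all control samples, of which replicate 3 was the lowest. The mean fell by 55.4%, from 58.1 ± 8.92 to 25.9 ± 2.34 CPM (SD, n = 3), which edgeR fitted as a log2 fold change of -1.16 ± 0.147 (SE) at an FDR of 0.00304, and the call held in all 14 alternative fits. The second RBL1 row (ENSG00000269846) had 0 to 5 counts per sample and was not tested. GENCODE 29 annotates that identifier as an antisense transcript that overlaps RBL1 exons by up to 211 bases, and whether the counting used strand is not given in the sources used here.

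RB1 (ENSG00000139687), the retinoblastoma protein that restrains the activator E2Fs, was measured at 96.2, 116.5 and 122.1 CPM with Apatinib and at 199, 205 and 149 CPM in the control samples. The groups did not overlap, but control replicate 3 lay nearer to the highest Apatinib sample than to the other control samples. The mean fell by 39.4%, from 184 ± 30.8 to 112 ± 13.6 CPM (SD, n = 3), which edgeR fitted as a log2 fold change of -0.72 ± 0.151 (SE) at an FDR of 0.0145. Leaving out control replicate 1 gave an FDR of 0.0823 at a log2 fold change of -0.67. Leaving out control replicate 2 gave an FDR of 0.0851 at -0.64.

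E2F2 and RB1 thus lost their calls in each of these fits, while E2F8 and RBL1 kept theirs. Of all genes, 0.497% were called lower when control replicate 1 was left out and 0.509% when control replicate 2 was. With limma on log2(FPKM + 1), 1.52% of all genes were called lower, and E2F8 and RBL1 were again the members called.

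**Figure D2:**
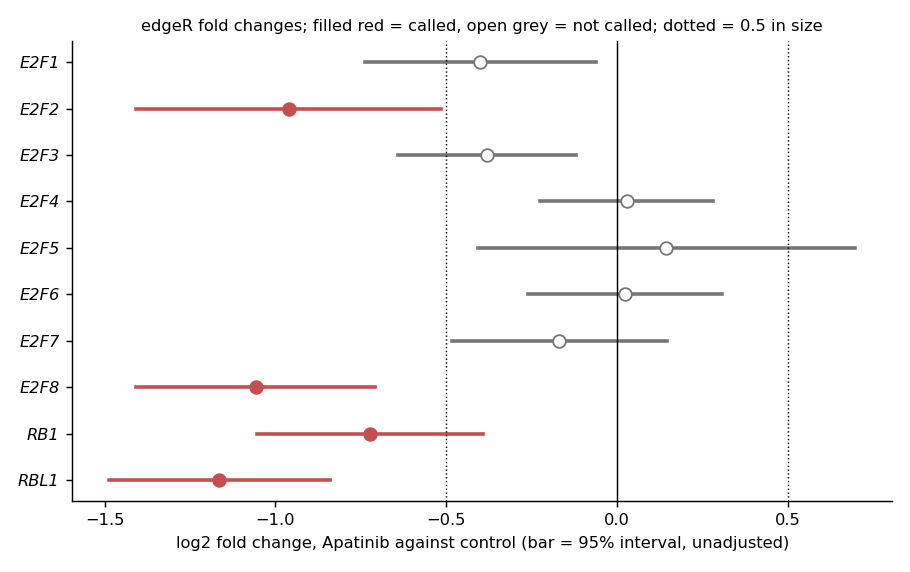
Log2 fold change of each member, Apatinib against control, from edgeR, with the unadjusted 95% interval as a bar and dotted lines at 0.5 in size. Filled red points are the 4 called members E2F2, E2F8, RB1 and RBL1, and open grey points are the 6 members not called.

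Activator and repressor E2Fs were then compared within samples, by the mean log2 CPM of each class. The mean of E2F1 to E2F3 was lower with Apatinib by an average of 0.60 on the log2 scale, that of E2F7 with E2F8 by 0.62, and that of E2F4 to E2F6 differed by 0.05 in the other direction. The genes within a class differed, with log2 fold changes of -1.06 for E2F8 and -0.17 for E2F7. E2F2 had -0.96, against -0.40 for E2F1 and -0.38 for E2F3. Taking the repressors E2F4 to E2F8 together, activators minus repressors gave 0.05, -0.61 and -0.02 with Apatinib against 0.09, 0.17 and 0.30 in the control samples. The groups did not overlap, although Apatinib replicate 1 came close to control replicate 1. Against E2F4 to E2F6 alone, the contrast was 0.22, -0.57 and 0.20 with Apatinib against 0.49, 0.62 and 0.68 in the control samples, a mean difference of -0.65. Against E2F7 with E2F8 it was -0.20, -0.69 and -0.36 with Apatinib against -0.52, -0.52 and -0.28 in the control samples, which overlapped, with a mean difference of 0.03. Apatinib replicate 2 was the lowest of the 6 samples in each of the 3 contrasts. Without it, the mean difference was -0.17 against all repressors, in place of -0.38, and -0.39 against E2F4 to E2F6. These class means carry no test.

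Levels of different members were compared per length, by the FPKM values of the authors. In the control samples E2F4 was the most abundant member, with a mean of 38.1 FPKM, followed by RB1 with 27.2, E2F1 with 16.4 and E2F7 with 15.0. E2F3 (8.21 FPKM), RBL1 (7.36) and E2F6 (6.37) came next, then E2F8 (4.56), E2F2 (2.13) and E2F5 (1.96). E2F1 and E2F7 did not differ beyond their spread, nor did the neighbours E2F3 and RBL1, RBL1 and E2F6, and E2F2 and E2F5. With Apatinib, E2F4 (38.5 FPKM) and RB1 (16.7) were still the top of the order and E2F2 (1.10) was the last. RB1 then overlapped E2F7 (13.5 FPKM). E2F6 (7.17) stood above E2F3 (6.40) by a narrow gap, with a lowest value of 6.89 against a highest of 6.82. The rise of E2F6 was seen in FPKM and not in CPM.

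**Figure D3:**
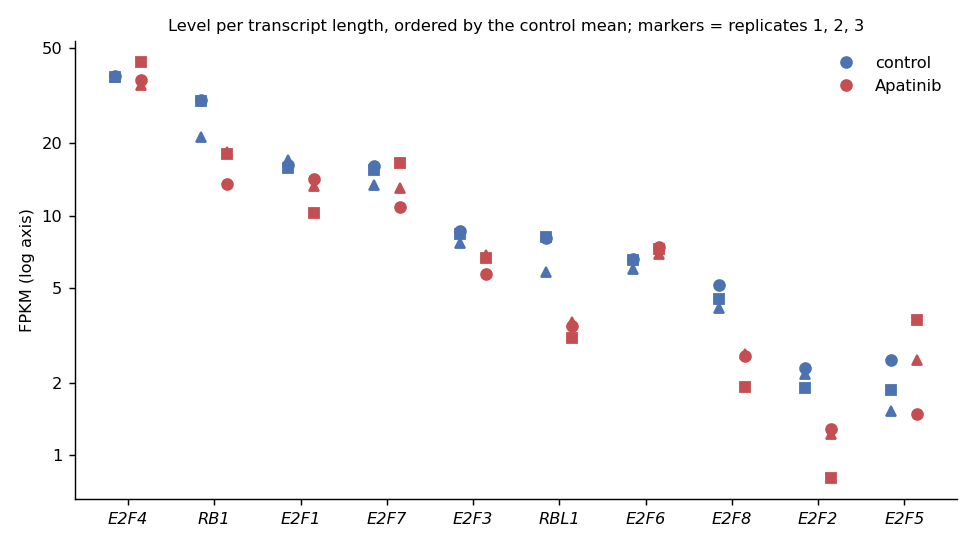
FPKM of each member on a log axis, ordered by the control mean, with control samples in blue, Apatinib samples in red, and circles, squares and triangles for replicates 1, 2 and 3. E2F4 stands highest in both groups, near 38 FPKM, the red points of E2F1, E2F2, E2F3, E2F8, RB1 and RBL1 lie below the blue ones, and those of E2F6 lie above.

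The FPKM of E2F1 to E2F8 summed to 80.3, 90.8 and 81.4 with Apatinib against 95.7, 92.3 and 90.0 in the control samples, so the groups overlapped. Activators made up 26.3%, 19.5% and 26.3% of this sum with Apatinib against 28.4%, 28.2% and 30.0% in the control samples. The share of E2F4 to E2F6 was 56.9%, 60.1% and 54.5% with Apatinib against 49.4%, 50.2% and 50.6%. Both shares were apart between the groups, the activators' lower and that of E2F4 to E2F6 higher with Apatinib. The share of E2F7 with E2F8 overlapped, at 16.8%, 20.4% and 19.3% against 22.2%, 21.6% and 19.5%, with Apatinib replicate 2 above control replicate 3.

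**Figure D4:**
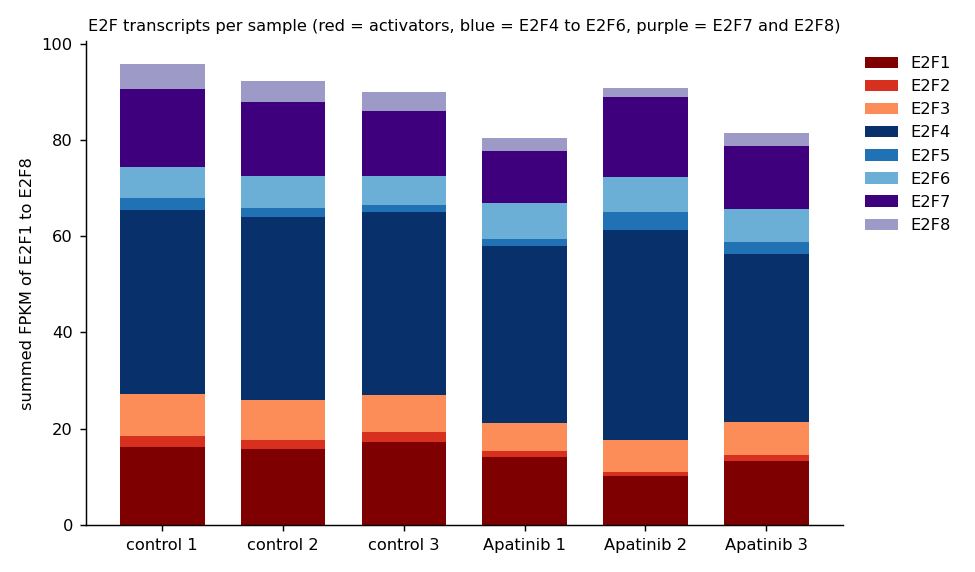
Summed FPKM of E2F1 to E2F8 in each sample, stacked by gene (reds for activators, blues for E2F4 to E2F6, purples for E2F7 and E2F8). Blue takes 49.4% to 50.6% of each control bar and 54.5% to 60.1% of each Apatinib bar.

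Ratios between 7 pairs of members within each sample were compared between the groups by a two-sided exact permutation test, whose smallest possible p is 0.1 for groups of 3. Each of the 7 gave p = 0.1 in the exact test, and 0.1 after Benjamini-Hochberg adjustment over the 7 pairs, so none could pass. The log2 FPKM ratio of E2F1 to E2F4, an activator to the most abundant repressor, was -1.38, -2.09 and -1.39 with Apatinib against -1.24, -1.27 and -1.15 in the control samples. The ratio of E2F7 to E2F8 was 2.07, 3.11 and 2.31 with Apatinib against 1.65, 1.79 and 1.71 in the control samples, a mean difference of 0.78. The ratio of RBL1 to RB1 was -1.98, -2.56 and -2.35 against -1.91, -1.88 and -1.87, a mean difference of -0.41. In all 3 pairs the groups were apart. The ratio of E2F2 to E2F3 was -2.16, -3.05 and -2.48 against -1.90, -2.14 and -1.82, a mean difference of -0.61. Apatinib replicate 2 held the extreme value in each of these ratios among the Apatinib samples. Without it, the mean difference was -0.17 for E2F1 to E2F4 (in place of -0.40), -0.37 for E2F2 to E2F3 and 0.47 for E2F7 to E2F8. The other mean differences were -0.95 for E2F8 to E2F4, 0.55 for E2F1 to E2F8 and -0.37 for E2F3 to E2F4, also without overlap. The pairs share members and were chosen with earlier results known, so the 7 are not independent. How often other gene pairs lie apart was not computed, and 33.2% of single genes did so in CPM.

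The patterns of the members over the 6 samples were nearest to those of different genes. E2F1 ran closest to MCM7 (Pearson's r = 0.998), a subunit of the replicative helicase, LIG1 (0.998), the ligase of lagging strand synthesis, and SLC25A10 (0.997), among 11646 genes with a mean of at least 5 CPM. RB1 ran closest to ACER3 (0.999), LRRC58 (0.999) and USP1 (0.999), a deubiquitinase of DNA repair. E2F8 ran closest to LINC01029 (0.999), NUP205 (0.997) and CYP2U1 (0.996), and E2F4 to ZNF263 (0.988), SLC25A38 (0.986) and ALKBH5 (0.986). Within the family, r was 0.96 for E2F1 with E2F2, 0.97 for E2F8 with RBL1 and 0.51 for E2F1 with RB1. These are descriptions over 6 samples that share the difference between the groups and its library depths, and they carry no test.

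The partners that E2Fs need for DNA binding were not called. TFDP1, the major DP partner, was measured at 141.2, 105.2 and 134.4 CPM with Apatinib and at 146.7, 147.3 and 165.8 CPM in the control samples (log2 fold change -0.27, edgeR FDR 0.200). For TFDP2 it was -0.08 (edgeR FDR 0.703), and TFDP3 was too low to test. RBL2, the pocket protein of quiescent cells, was measured at 122.7, 128.6 and 146.7 CPM with Apatinib and at 166.0, 156.5 and 130.7 CPM in the control samples. Its groups overlapped (log2 fold change -0.19, edgeR FDR 0.363), in contrast to the calls for RB1 and RBL1, but the difference between these genes' responses was not tested.

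In the DREAM and MuvB complex, which joins RBL1 or RBL2 with E2F4 to silence cell cycle genes and later activates mitotic genes with MYBL2 and FOXM1, 1 of 9 genes tested was called lower and none higher, with a median log2 fold change of -0.23. That is 11.1% of the list, against 5.48% of all 16290 genes called lower, and the median over all genes was 0.00. The called gene was LIN9, a core subunit, at 10.2, 10.8 and 12.7 CPM with Apatinib against 26.03, 24.4 and 13.1 CPM in the control samples (log2 fold change -0.91, edgeR FDR 0.0296). Control replicate 3 lay beside the Apatinib samples, and its call needed most of the other samples. The FDR was 0.0853 or 0.0636 after leaving out Apatinib replicate 1 or 2, and 0.134 or 0.124 after leaving out control replicate 1 or 2. MYBL2 showed a log2 difference of -0.51 (edgeR FDR 0.0675), MYBL1 one of -0.49 (FDR 0.116) and FOXM1 one of -0.23 (FDR 0.451).

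Of the 14 genes of the E2F6 complex PRC1.6, 2 were called lower, CBX3 (log2 fold change -0.70, edgeR FDR 0.0249), a heterochromatin protein, and MGA (-0.57, FDR 0.0473), the complex's MAX partner, with a list median of -0.15. The share called lower was 14.3%, against 5.48% of all genes. RING1, its ubiquitin ligase, had a log2 fold change of 0.36 (FDR 0.0728). Of 12 corepressors and chromatin partners of RB, 2 were called lower, ARID4A (-0.998, FDR 0.0198) and ARID4B (-0.93, FDR 0.0150), RB-binding subunits of SIN3 complexes, with a list median of -0.26. This was 16.7% of the list, against 5.48% of all genes called lower. ARID4A was measured at 17.6, 20.7 and 21.4 CPM with Apatinib against 46.7, 48.3 and 24.4 CPM in the control samples, again with control replicate 3 near the Apatinib group. DNMT1, the maintenance DNA methyltransferase, had a log2 fold change of -0.45 (FDR 0.0603). No gene of these 2 lists was called without control replicate 1 or without control replicate 2. CBX3 (FDR 0.0760 and 0.0587) and MGA (0.136 and 0.0805) also missed the threshold without Apatinib replicate 1 or 2, as did ARID4A (0.0643) and ARID4B (0.0523) without Apatinib replicate 1.

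Upstream of the pocket proteins the genes went in both directions. Of 9 genes tested on a list of cyclins, their kinases and the phosphatase CDC25A, 3 were called lower and 1 higher. This was 44.4% of the list against 11.5% of all genes, and the list median was -0.57. CCND1, the cyclin D that starts RB phosphorylation with CDK4 or CDK6, was measured at 544.2, 586.5 and 503.6 CPM with Apatinib and at 338.3, 357.0 and 343.5 CPM in the control samples. All Apatinib samples were above all control samples, and the mean was 1.57-fold higher (log2 fold change 0.65, edgeR FDR 0.00847). CDK6 fell (log2 fold change -0.75, FDR 0.0198), while CDK4 had a log2 fold change of 0.11 (FDR 0.639) and CDK2 one of -0.34 (FDR 0.172). CCNE2, a cyclin E and E2F target, was measured at 3.20, 1.92 and 4.46 CPM with Apatinib and at 11.1, 13.2 and 7.38 CPM in the control samples (log2 fold change -1.72, FDR 0.00776). CCNE1, its paralog, was apart between the groups without a call (-0.62, FDR 0.107). CDC25A, the phosphatase that activates CDK2, was the other called gene (-0.84). Only CCNE2 of these 4 called genes kept an FDR under 0.05 without control replicate 1 and without control replicate 2, and CDK6 also lost its call without Apatinib replicate 1 (FDR 0.0604). With limma on log2(FPKM + 1) it was CCND1 that kept its call (FDR 0.0191), while CCNE2 did not (FDR 0.0597). The FPKM of CCNE2 overlapped between the groups, at 2.68 in Apatinib replicate 3 and 2.59 in control replicate 3.

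Of the 7 CDK inhibitor genes, 2 were called higher and none lower, with a list median of 0.32. This was 28.6% of the list, against 5.97% of all genes called higher. CDKN1C (p57) was measured at 34.1, 24.1 and 27.8 CPM with Apatinib and at 13.6, 11.9 and 16.8 CPM in the control samples, a 2.03-fold higher mean (log2 fold change 1.02, edgeR FDR 0.00776). CDKN1A (p21) was measured at 16.5, 21.7 and 13.6 CPM against 9.81, 10.45 and 11.3 CPM (log2 fold change 0.72, FDR 0.0308). Both genes were higher in 3 of 3 Apatinib samples than in any control sample, and CDKN1A lost its call without control replicate 1 (FDR 0.134), control replicate 2 (0.119) or Apatinib replicate 2 (0.0582) and also without Apatinib replicate 1 (0.0620). CDKN1B (p27) had a log2 fold change of -0.09 (FDR 0.699), CDKN2A (p16 and ARF) one of 0.32 (FDR 0.241) and CDKN2C (p18) one of -0.53 (FDR 0.0947).

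Downstream, genes of replication and mitosis were called in 1 direction. Of 44 G1/S genes with E2F sites, 27 (61.4%, against 5.48% of all genes) were called lower and none higher. All 44 had a negative log2 fold change, against 8095 of all 16290 genes tested, and the median was -0.64. CLSPN, a replication checkpoint adaptor, was measured at 24.2, 17.0 and 28.6 CPM with Apatinib and at 57.9, 63.3 and 51.8 CPM in the control samples (log2 fold change -1.31, edgeR FDR 0.00361). EZH2, the Polycomb methyltransferase, fell by 0.91 on the log2 scale (edgeR FDR 0.00485). The list held 7 called genes without control replicate 1 and 8 without control replicate 2, fits in which 0.497% and 0.509% of all genes were called lower. It held 22, 20 and 28 without Apatinib replicates 1, 2 and 3 and 23 without control replicate 3, where 1.62%, 3.63%, 5.94% and 8.89% of all genes were called lower. The mean log2 CPM of the list was 5.85, 5.26 and 5.93 with Apatinib against 6.45, 6.44 and 6.39 in the control samples, with Apatinib replicate 2 the lowest, as for E2F1 and E2F2.

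Of 40 G2/M genes bound by MuvB, 23 (57.5%, against 5.48% of all genes) were called lower and none higher. All 40 were again negative, against 8095 of all 16290 genes tested, and the median was -0.68. NDC80 (-1.08, edgeR FDR 0.00361) and NUF2 (-1.15, FDR 0.00751), both of the outer kinetochore, and ECT2 (-1.17, FDR 0.00718), which directs cytokinesis, were called, and all 3 kept an FDR under 0.05 in each fit that left out a sample. The list held 8 called genes without control replicate 1 and 8 without control replicate 2, again beside 0.497% and 0.509% of all genes. Its mean log2 CPM was 6.56, 5.98 and 6.70 with Apatinib against 7.24, 7.27 and 7.06 in the control samples. Apatinib replicate 2 was again lowest and control replicate 3 the lowest control sample.

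Apoptosis genes reported as E2F1 targets had 2 of 10 called lower and none higher, or 20% of the list against 5.48% of all genes called lower, and the median log2 fold change was 0.01. APAF1, the apoptosome scaffold, fell (-0.60, edgeR FDR 0.0393), and its call did not hold without control replicate 1 (FDR 0.137), control replicate 2 (0.162), Apatinib replicate 1 (0.0907) or Apatinib replicate 2 (0.0711). BBC3 (PUMA) had a log2 fold change of 0.45 (FDR 0.137).

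**Figure D5:**
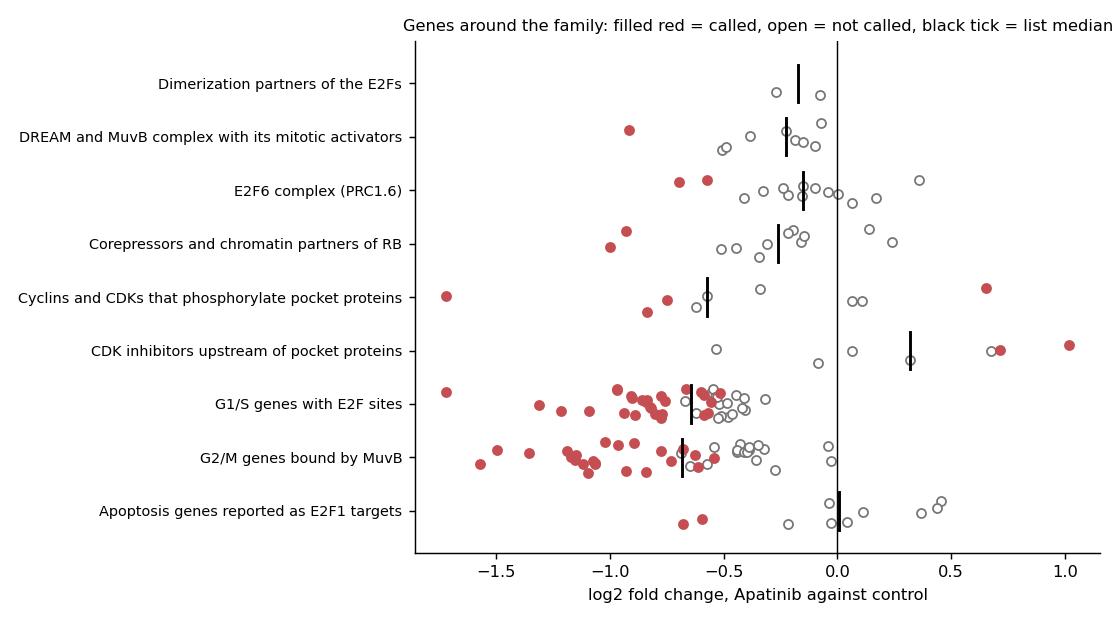
Log2 fold change (edgeR, Apatinib against control) of every tested gene on 9 lists around the family, filled red where called and open where not, with the list median as a black tick. All points of the G1/S and G2/M lists lie left of 0, and called points of the CDK inhibitors lie right of 0.

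The octamers printed for E2F1, E2F2, E2F3 and RBL1 were also counted in these lists. At least 1 octamer occurred in the windows of 22 of 36 G1/S genes and 2 of 35 G2/M genes that had a window. Counted per gene in the same way, an octamer occurred in 679 of all 10294 tested genes with a window. Over all genes tested with a window, 11.6% of 679 genes with an octamer were called lower and 2.95% higher, with a median log2 fold change of -0.08. Of 9615 genes without one, 5.77% were called lower and 6.22% higher, with a median of 0.01. A match describes the letters of the window and does not show binding in these cells.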

How the data were processed

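The authors deposited counts per gene, whole numbers that were not normalized, for the 6 samples, and FPKM values per sample. The submitters' processing notes name CASAVA, STAR 2.7.1a and hg19, while the counting program, its strand setting and its annotation are not given in the sources used here. The study names DESeq2 for its comparison. FPKM was not a rescaled CPM, since the ratio of FPKM to CPM varied between samples by up to 1.68 times for E2F5, 1.29 times for E2F6 and 1.16 times for the other members. The FPKM values of Apatinib replicate 1 came with 1 further column, headed as a control sample, that was left aside.

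The count analysis used edgeR 4.0.16 in R 4.3.3 (filterByExpr, TMM factors 0.952 to 1.03, glmQLFit and glmQLFTest on 3 against 3 samples without covariates, Benjamini-Hochberg adjustment over 16290 genes), and log2 CPM used a prior count of 2. Calls needed both an FDR under 0.05 and a change of more than 0.5 on the log2 scale. The SE of a log2 fold change is not an output of this test. It was derived as the size of the fold change divided by the square root of the F statistic. The 95% intervals were built from this SE with the t distribution. On simulated data of 16290 genes, this test recovered 56% of 50 genes changed by 0.7, 76% by 1, 94% by 1.5 and 98% by 2 on the log2 scale for the comparison of Apatinib with control. The simulated samples were drawn independently from the trended dispersion, without the likeness of control replicates 1 and 2. Far fewer genes were changed in the simulation than were called here, so these rates need not hold for the real samples. Alternatives were DESeq2 1.42.0, limma 3.58.1 on log2 FPKM with pseudocounts of 1 and 0.1 (genes over a mean of 0.5 FPKM), other filters and size factors, a replicate block, control replicates 1 and 2 summed, and each sample left out.

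The members, the 9 gene lists and the tests were chosen with earlier results of these data known, so the lists' directions are not independent evidence. Named genes are the members, fixed partners and the 3 genes with the smallest p on each list, to which CDC25A was added after its values were seen, and some genes under this rule are not reported here. Replicate numbers did not pair the samples. Sequences are from RefSeq windows, with no entry used for E2F5, E2F8 and RB1.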

Additional observations from a re-analysis of the deposited data

How the results depend on the processing

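Across 14 alternative fits of the 10 members, 126 of 140 values kept their direction and their side of the threshold, 10 lost the call and 4 changed sign. Of 462 fits of 33 other named genes, 385 kept both, 64 lost the call, 11 gained it and 2 changed sign. The number of members called lower, 4, was 2 to 4 when 1 sample was left out, and 2 with control replicates 1 and 2 summed or with limma on log2(FPKM + 1) or log2(FPKM + 0.1). The number of members called higher was 0 in every edgeR, DESeq2 and limma fit, also at an unadjusted p under 0.05 in edgeR. The number called over all genes, 1866, was 275 to 2594 with 1 sample left out, 292 with controls 1 and 2 summed, and 796 and 810 with limma at pseudocounts of 1 and 0.1. The G1/S list, 27 called, gave 7 to 28, 7, 16 and 14 in the same order, and the G2/M list, 23 called, gave 8 to 23, 8, 13 and 13. The cause of these losses was not tested.

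Sign changes came from values near 0. With 1 sample left out, the log2 fold change ranged from -0.0104 to 0.0886 for E2F4, from -0.165 to 0.317 for E2F5, from -0.0373 to 0.0616 for E2F6, from -0.0258 to 0.199 for CDK4 and from -0.210 to 0.00274 for CDKN1B. The median ranged from -0.165 to 0.0524 for E2F4 to E2F8 and from -0.0373 to 0.0886 for E2F4 to E2F6. The negative values of the E2F genes came without Apatinib replicate 2, and for E2F4 also without control replicate 2, and the sign changes of CDK4 and CDKN1B without Apatinib replicate 1.

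Deviations of samples with the same replicate number correlated at -0.259, 0.0808 and -0.22, so the numbers were not taken as pairs. With the replicate block, 4 members were called, RB1 with FDR 0.00251 and E2F2 with FDR 0.000334, and 2215 genes in all. Of the other alternatives, leaving the low-count filter out gave 2559 genes and DESeq2 gave 2046. In alternatives added after seeing the data, the 7 ratios kept their direction with CPM in place of FPKM and with each sample left out, as did the activators against E2F4 to E2F8 and against E2F4 to E2F6. The difference of activators against E2F7 with E2F8 ranged from -0.0814 to 0.164 with 1 sample left out. The lowest sample held 87 counts of E2F5 and 99 of E2F2, the fewest of the members, which give counting errors of 10.7% and 10.1%.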
